A study of Homo sapiens with 16 samples.

Results

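Complement was followed here through 9 of the 40663 gene symbols in an RNA-seq table of human colon fibroblasts. The members were C1R, C1S, C3, CFB, CFD, C7, SERPING1, CFI and CD55, picked by symbol as genes of the pathway, without a rule on their measured values. They were, however, chosen with earlier results of these data known. Each of the 9 symbols had a row in the table. The cells were Ccd18-Co, a fibroblast line grown from human colon, so the replicates are cultures of a single line, and the labels do not say whether they were pulsed in separate experiments. The p-values therefore measure the spread between these samples, which may be technical. The 16 libraries formed 4 groups of 4. Unstimulated cells (replicates 1 to 4) received no cytokines and, by their titles, DMSO, though their column headers read "none". If the headers are right, the pulses and DMSO cannot be told apart in vehicle against unstimulated cells. The other groups had been pulsed 3 times for 72 h, each time with 96 h of recovery, with IL-17A, OSM and TNF (each at 10 ng/ml) plus IL-1B (0.1 ng/ml). After 1 week of rest these cells were given for 5 days DMSO (vehicle, replicates 13 to 16), the histone deacetylase inhibitor belinostat at 250 nM (replicates 17 to 20) or GSK-J4, which inhibits the demethylases of lysine 27 of histone H3, at 10 uM (replicates 21 to 24). RNA was collected 2 weeks later. These doses are those of the labels, and the study gives others in places. The comparisons asked which transcript levels the cytokine pulses had left changed after weeks, and which of them differed once a chromatin inhibitor had followed.

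Complement is a cascade of plasma and tissue proteins that tags surfaces for clearance and can perforate membranes. It starts when recognition proteins activate the proteases C1r and C1s (classical pathway), when lectins activate related proteases, or when factor D cuts factor B on deposited C3b (alternative pathway). These routes converge on cleavage of C3, after which C5 to C9 assemble the membrane attack complex, while C1 inhibitor, factor I and membrane proteins such as CD55 hold the cascade in check. The liver makes most of the circulating proteins, and fibroblasts are a known local source of several of them.

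The libraries held 14.4 to 19.5 M estimated counts. Of the listed fibroblast markers, 9 of 9 reached a mean of 10 normalized counts over the 16 libraries. Normalized counts are estimated counts divided by a size factor for library depth. The same mean was reached by 0 of 5 markers for epithelium and 0 of 5 for hepatocytes. For endothelium it was 1 of 4 (VWF), and for leukocytes and macrophages 2 of 6 (CD68 and CD14). Within the belinostat group the epithelial marker CDH1 averaged 10.65. KRT20, C1QA and CD3E had 0 counts in all 16 libraries, where a count of 0 allows up to 3 counts. The summed fibroblast markers ran from 489101 to 515624 normalized counts in unstimulated cells, from 501974 to 536279 in vehicle, from 431600 to 515323 under belinostat and from 538880 to 574821 under GSK-J4. Those of leukocytes and macrophages, mostly CD68 and CD14, summed to 261.9 to 498.0, 298.1 to 519.1, 297.9 to 725.6 and 346.4 to 526.3 in the same order. The part of these markers in the differences described here was not tested. Belinostat replicate 17 lay apart from the other libraries on the second principal component, at -12.98 where the others lay between -3.66 and 7.03. It was also the lowest of its group for 7 of the 9 members. On the other side, GSK-J4 replicate 22 was the highest of its group for 7 of the 9, and vehicle replicate 13 for 6. In bulk RNA, fewer cells of a type and less RNA per cell cannot be told apart.

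C3, the protein on which the 3 routes converge, was the member with the widest differences between groups. The gene (ENSG00000125730.18) lies on the minus strand at chr19:6677704-6730562 in GRCh38. In unstimulated replicates 1 to 4 it stood at 89.8, 133.1, 121.6 and 89.8 normalized counts. Vehicle replicates 13 to 16 held 473.0, 337.3, 351.2 and 602.1, belinostat replicates 17 to 20 held 296.0, 245.4, 290.2 and 314.6, and GSK-J4 replicates 21 to 24 held 734.3, 1157, 908.3 and 811.3. The groups were thus ordered unstimulated, belinostat, vehicle, GSK-J4, and no library of a group reached into the next group. The nearest neighbours in that order were the highest belinostat library (314.6) and the lowest vehicle library (337.3). Of the 31-base words in C3 transcripts, 11.1% also occur in the annotated gene ENSG00000276980, so the division of reads between both is uncertain.

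After the cytokine pulses C3 was 4.06-fold higher in vehicle than in unstimulated cells (440.9 ± 124 against 108.6 ± 22.2 normalized counts, SD, n = 4), or 2.02 in log2 (SE 0.19, adjusted p 1.16e-22 by DESeq2). GSK-J4 cells held 902.7 ± 184 normalized counts (SD, n = 4), 2.05-fold more than vehicle (log2 1.03, SE 0.18, adjusted p 7.65e-06 by DESeq2). Belinostat cells held 286.6 ± 29.3 (SD, n = 4), lower than vehicle by a log2 fold change of -0.62 (SE 0.18, adjusted p 0.0165 by DESeq2) and still 2.64-fold higher than unstimulated cells (log2 1.40, SE 0.19, adjusted p 8.68e-11 by DESeq2). Set against each other directly, the compounds differed in C3 by -1.65 on the log2 scale (belinostat minus GSK-J4, SE 0.18, adjusted p 3.3e-17 by DESeq2), and GSK-J4 cells exceeded unstimulated cells 8.31-fold. Of these 6 calls, the fall from vehicle to belinostat was the one that alternatives removed: its adjusted p was 0.0609 in edgeR, and 0.0817 in a DESeq2 fit with 2 surrogate variables. It also missed the threshold when vehicle replicate 13 (-0.59), vehicle replicate 16 (-0.43) or belinostat replicate 18 (-0.56) was left out, and was kept without belinostat replicate 17 (-0.64). Among the 13197 genes tested in every comparison, C3 and TGFB2 were the ones called in all 6, or 0.0152%, and 8 genes, or 0.0606%, had no overlap between libraries in any of the 6. These 6 comparisons reuse the same 4 groups, so they are not independent of each other.

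**Figure D1:**
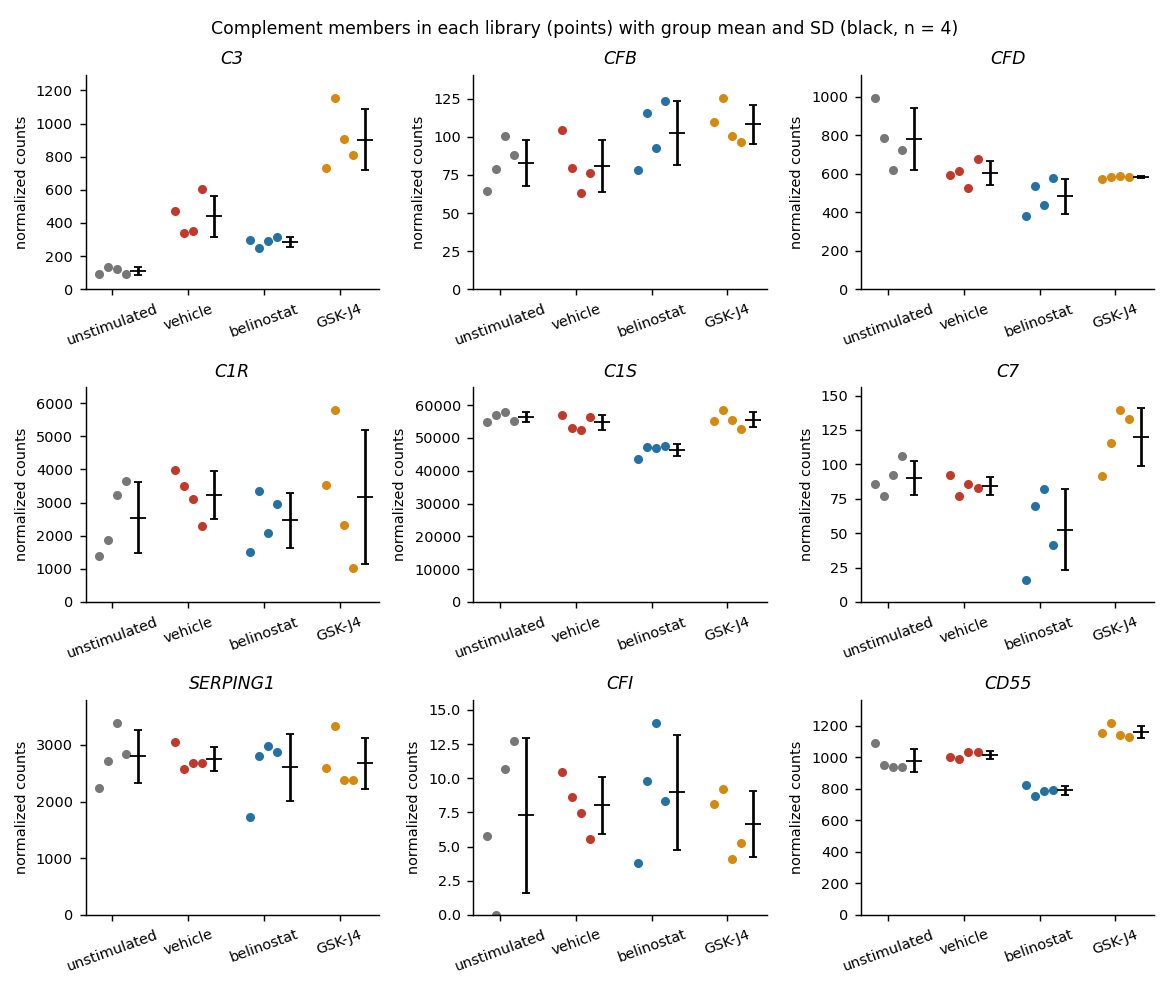
Normalized counts (vertical axes, linear from 0) of the 9 members in each library of the 4 groups, with points in replicate order and black bars for the group mean and SD (n = 4). C3 forms 4 separate levels, C1S and CD55 sit lower in the belinostat libraries than in any other library, and C1R spreads widely inside every group, most under GSK-J4 (1039 to 5782).

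CFD and CFB encode factor D and factor B, the serine proteases that build the C3 convertase of the alternative pathway. CFD (ENSG00000197766.9, chr19:859453-867884, plus strand) stood at 996.9, 783.8, 618.8 and 725.4 normalized counts in unstimulated replicates 1 to 4. Its vehicle libraries held 595.8, 617.1, 527.2 and 678.6, its belinostat libraries 380.9, 536.1, 436.9 and 578.3, and its GSK-J4 libraries 573.6, 582.6, 587.2 and 585.9. The unstimulated libraries lay above every library of both compound groups, and overlapped with vehicle through unstimulated replicate 3. CFD was lower than in unstimulated cells under belinostat, by a log2 fold change of -0.69 (SE 0.14, adjusted p 2.79e-05 by DESeq2), and under GSK-J4, by -0.42 (SE 0.14, adjusted p 0.0415 by DESeq2). The direction of CFD was thus opposite to that of C3 in the same comparisons. The call under GSK-J4 was lost in edgeR (adjusted p 0.0688) and without any 1 of unstimulated replicates 1, 2 and 4 or GSK-J4 replicates 21 to 24, with log2 fold changes from -0.46 to -0.28, whereas that under belinostat held in every alternative. Vehicle differed from unstimulated cells by -0.37 (SE 0.14, adjusted p 0.208 by DESeq2), which passed without unstimulated replicate 3 (-0.47, adjusted p 0.0308 by DESeq2). Belinostat differed from vehicle by -0.33 (SE 0.14, adjusted p 0.182 by DESeq2), which passed with 2 surrogate variables (-0.45). CFD ends inside MED16, a Mediator subunit on the other strand, and 11.8% of its 31-base words occur there as well, so reads from the overlap cannot be told apart unless strand was used.

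CFB passed the test in none of the 6 comparisons. The gene (ENSG00000243649.10, chr6:31945650-31952086, plus strand) ranged from 64.7 to 100.3 normalized counts in unstimulated cells, from 63.3 to 104.7 in vehicle, from 78.3 to 123.6 under belinostat and from 96.4 to 125.9 under GSK-J4, and each pair of groups overlapped. GSK-J4 minus vehicle was 0.42 on the log2 scale (95% interval 0.04 to 0.79, adjusted p 0.383 by DESeq2). Vehicle minus unstimulated was -0.04, with an interval of -0.42 to 0.34. Of the 31-base words in its transcripts, 38.8% also occur in the annotated gene ENSG00000244255, so the division of reads between both is uncertain.

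The sequence before the RefSeq start of CFB is shown because it was the member whose window held letters of the interferon response element (ISRE). RefSeq (GRCh38.p14) gives starts for 6 of the 9 members (C1R, C7, CFB, CFD, CFI and CD55), with 2 for C1R. The 250 bases before each start were searched on both strands. The ISRE consensus was found in 0.188% of 35116 promoters of this length, and the NF-kB consensus, which the CFB window also held in 1 place, in 9.96%. The stretch is chr6:31945845-31945974 on the plus strand, and capitals mark the ISRE match, which lies 142 to 129 bases before the RefSeq start. The stretch lies inside the annotated gene, after the exon of a transcript that starts farther upstream (chr6:31945650-31945700), and ends at the base before the next annotated exon.
CFB: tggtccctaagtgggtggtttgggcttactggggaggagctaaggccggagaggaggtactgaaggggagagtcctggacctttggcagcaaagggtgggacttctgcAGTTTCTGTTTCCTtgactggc
The NF-kB match lies nearer to the start, 112 to 103 bases before it. The window also held the STAT letters TTCNNNGAA, 92 to 84 bases before the start, and the TATA box letters TATAAA, 30 to 25 bases before it. Of all promoters, 6.57% hold the STAT letters and 10.7% the TATA box letters. Such a match describes letters and not a bound site, and for CFB the test called no difference after the cytokine pulses.

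C1S and C1R encode the paired serine proteases that open the classical pathway and lie 9182 bases apart in opposite orientation. C1S (ENSG00000182326.17, chr12:6988259-7071032, plus strand) took 0.25% to 0.335% of the counts of each library. It stood at 54778, 57139, 57993 and 55321 normalized counts in unstimulated replicates 1 to 4 and at 57044, 53076, 52546 and 56445 in vehicle. Under belinostat it stood at 43530, 47347, 46992 and 47506, and under GSK-J4 at 55247, 58411, 55540 and 52830. The 4 belinostat libraries were the lowest of the 16, and the other 3 groups overlapped. C1S was lower under belinostat, against vehicle by -0.24 on the log2 scale (SE 0.04, adjusted p 2.42e-06 by DESeq2), against GSK-J4 by -0.26 and against unstimulated cells by -0.28 (SE 0.04 each), and the 3 calls held in every alternative. The size was modest, at 1.18-fold against vehicle. For GSK-J4 minus vehicle the difference was 0.02, with a 95% interval of -0.07 to 0.10, and for vehicle minus unstimulated it was -0.04, with an interval of -0.12 to 0.04.

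C1R (ENSG00000159403.18, chr12:7080214-7092540, minus strand) varied far more inside each group than C1S did. Its unstimulated libraries held 1390.7, 1884.0, 3215.4 and 3655.4 normalized counts, and its vehicle libraries 3984.3, 3502.3, 3111.1 and 2290.4. Its belinostat libraries held 1498.9, 3338.4, 2083.2 and 2953.9, and its GSK-J4 libraries 3519.1, 5782, 2309.2 and 1038.7. The groups overlapped throughout, and the ratio of the highest to the lowest library was 2.63 in unstimulated cells, 1.74 in vehicle, 2.23 under belinostat and 5.57 under GSK-J4. Counting error alone would give an SD of 1.71% to 2.1% of the mean, where the SD was 22.2% to 63.8%. For C1S the same SD was 2.68% to 4.19%. C1R was called by DESeq2 in 0 of 6 comparisons, with 0 at an unadjusted p under 0.05 and 0 called by edgeR. It had an SE of 0.46 on the log2 scale, and the interval for belinostat minus vehicle ran from -1.29 to 0.52. C1R shares 10.7% of its 31-base words with the overlapping C1RL, whose own libraries ran from 1944.7 to 2503.3 normalized counts.

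C7, a component of the membrane attack complex, was low and was called between belinostat and GSK-J4. The gene (ENSG00000112936.21, chr5:40909492-41020216, plus strand) stood at 85.9, 77.1, 92.3 and 106.4 normalized counts in unstimulated cells and at 92.3, 76.7, 85.7 and 83.0 in vehicle. Under belinostat it stood at 16.2, 69.6, 82.0 and 41.5, and under GSK-J4 at 91.5, 115.7, 139.2 and 133.1. The belinostat libraries spread 5.05-fold, with replicate 17 lowest, and none of them reached the lowest GSK-J4 library. Belinostat minus GSK-J4 was -1.21 on the log2 scale (SE 0.30, adjusted p 0.000898 by DESeq2), and -0.90 without belinostat replicate 17 (adjusted p 0.000381 by DESeq2). Against vehicle neither compound passed, with belinostat at -0.70 (SE 0.30, adjusted p 0.177 by DESeq2) and GSK-J4 at 0.51 (SE 0.29, adjusted p 0.59 by DESeq2). Belinostat against unstimulated cells was -0.80 (SE 0.30, adjusted p 0.0645 by DESeq2). Without belinostat replicate 17 the belinostat values were -0.40 against vehicle (adjusted p 0.328 by DESeq2) and -0.50 against unstimulated cells (adjusted p 0.136 by DESeq2). They were called with 2 surrogate variables, at -1.24 against vehicle and -1.39 against unstimulated cells, and without belinostat replicate 19, at -1.02 and -1.12. Without belinostat replicate 18 the second was called as well, at -0.97.

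The C7 promoter is shown because belinostat and GSK-J4 cells lay apart for this gene and its start in RefSeq and in the annotation coincide within a few bases. It covers chr5:40909247-40909491 on the plus strand, with capitals for a match to the TATA box letters TATAAA on the reverse strand and then for the STAT letters TTCNNNGAA.
C7: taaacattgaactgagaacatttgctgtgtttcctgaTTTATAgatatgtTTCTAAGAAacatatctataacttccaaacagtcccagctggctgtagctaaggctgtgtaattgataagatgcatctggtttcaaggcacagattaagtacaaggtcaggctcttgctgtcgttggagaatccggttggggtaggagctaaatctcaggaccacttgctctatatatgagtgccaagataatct
The first match lies 213 to 208 bases before the RefSeq start, far from where a TATA box sits, and 10.7% of promoters hold these letters within 250 bases of the start. The search took the exact letters TATAAA only, so variant forms, such as the run of T and A near the end of the stretch, were not marked. The STAT letters were found in 6.57% of promoters.

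SERPING1 and CFI encode soluble brakes on the cascade, C1 inhibitor, which inactivates C1r and C1s, and factor I, which cleaves C3b and C4b. SERPING1 (ENSG00000149131.17, chr11:57597387-57619171, plus strand) stood at 2796 ± 467 normalized counts in unstimulated cells, 2750 ± 210 in vehicle, 2603 ± 583 under belinostat and 2676 ± 455 under GSK-J4 (SD, n = 4). The groups overlapped, and the test called no comparison. The 95% interval was -0.32 to 0.28 on the log2 scale for vehicle minus unstimulated, -0.38 to 0.22 for belinostat minus vehicle and -0.34 to 0.26 for GSK-J4 minus vehicle. Belinostat replicate 17 held 1733.7 where the other belinostat libraries held 2813 to 2982, and without it belinostat minus vehicle was 0.07. With 2 surrogate variables, belinostat minus unstimulated was called at -0.31. CFI (ENSG00000205403.15, chr4:109731008-109802150, minus strand) was near the limit of detection, from 0 to 14.0 normalized counts in a library. Unstimulated replicate 2 held 0 counts, which allows up to 3 counts or 0.171 CPM (counts scaled to a common library total). DESeq2 tested CFI in 3 of the 6 comparisons and called it in none of them, and no difference was detectable at this depth. Of the 31-base words in CFI transcripts, 28.5% also occur in the annotated gene ENSG00000285330.

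CD55, or decay-accelerating factor, sits on the cell membrane and speeds the decay of C3 convertases. The gene (ENSG00000196352.18, chr1:207321519-207386804, plus strand) stood at 1089.6, 953.0, 937.4 and 935.3 normalized counts in unstimulated cells and at 998.4, 988.9, 1033.0 and 1034.6 in vehicle. Belinostat libraries held 822.0, 754.6, 788.6 and 791.2, and GSK-J4 libraries 1153.4, 1215.4, 1140.9 and 1127.8. The belinostat libraries were the lowest 4 of the 16 and the GSK-J4 libraries the highest 4, with unstimulated cells and vehicle overlapping between them. CD55 was 1.28-fold lower under belinostat than in vehicle (log2 -0.36, SE 0.06, adjusted p 1.29e-07 by DESeq2) and 1.24-fold lower than in unstimulated cells (log2 -0.31). Belinostat minus GSK-J4 was -0.55 (SE 0.06, adjusted p 9.09e-19 by DESeq2), and GSK-J4 minus unstimulated was 0.24 (SE 0.06, adjusted p 0.00089 by DESeq2). The rise under GSK-J4 against vehicle was 0.19 (SE 0.06, adjusted p 0.0363 by DESeq2), but this call was lost in edgeR (adjusted p 0.0976), with library totals as size factors (0.17) and without any 1 of the 8 libraries compared (0.17 to 0.21). The cytokine pulses left no detectable difference, at 0.05 for vehicle minus unstimulated (95% interval -0.06 to 0.16).

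CD55 is shown next because it differed in 5 of the 6 comparisons. The stretch is chr1:207321428-207321518 on the plus strand, the part of the RefSeq window that comes before the first annotated exon.
CD55: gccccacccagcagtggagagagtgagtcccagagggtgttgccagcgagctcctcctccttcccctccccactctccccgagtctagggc
None of the 7 motifs searched occurs in these 91 bases, namely the TATA box (TATAAA), the GC box (GGGCGG), the AP-1 letters TGANTCA, the STAT letters TTCNNNGAA, the cyclic AMP half-site TGACG and the consensus forms of NF-kB and the ISRE. Nearer to the start, the 250-base window held the half-site in 2 places, 147 to 143 and 70 to 66 bases before the start, and the GC box 46 to 41 bases before it. Of all promoters, 21.2% hold the half-site and 42.6% the GC box in a window of this length.

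By comparison, DESeq2 called 1 of 9 tested members between vehicle and unstimulated cells (C3, higher), where it called 1.74% of all genes tested and 1.10% as higher. Between belinostat and vehicle it called 3 of 8 (C3, C1S and CD55, each lower under belinostat), against 6.26% of all genes and 3.13% as lower. Between GSK-J4 and vehicle it called 2 of 8 (C3 and CD55, both higher), against 1.92% and 1.10% as higher. Between belinostat and GSK-J4 it called 4 of 9 (C3, C1S, C7 and CD55, each lower under belinostat), against 12.2% and 6.01% as lower. Belinostat against unstimulated cells gave 4 of 8 calls (C3 higher, with C1S, CFD and CD55 lower), where 10.3% of genes were called, 5.51% as higher and 4.77% as lower. GSK-J4 against unstimulated cells gave 3 of 9 (C3 and CD55 higher, CFD lower), where 5.55% were called, 3.18% as higher and 2.37% as lower. For each called member the libraries of the groups did not overlap. Over all tested genes that held for 6.93% between vehicle and unstimulated cells, 11.4% between belinostat and vehicle, 10.0% between GSK-J4 and vehicle, 17.0% between the compounds, 12.3% between belinostat and unstimulated cells and 11.9% between GSK-J4 and unstimulated cells. The median log2 fold change of the tested members was -0.34 for belinostat minus vehicle and 0.11 for GSK-J4 minus vehicle, beside 0.00288 and -0.00249 over all tested genes. Both comparisons use the same vehicle libraries. Without belinostat replicate 17 the numbers of calls were the same, at 3 against vehicle, 4 against GSK-J4 and 4 against unstimulated cells. The medians above were taken with that library included. Without it, belinostat minus vehicle was -0.21 for C1R, -0.21 for C1S, -0.64 for C3 and -0.40 for C7. It was 0.45 for CFB, -0.23 for CFD, 0.07 for SERPING1 and -0.38 for CD55. The members were chosen with earlier results of these data known, and their roles differ. With 9 of them, these counts describe the list and are not a test of it.

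**Figure D2:**
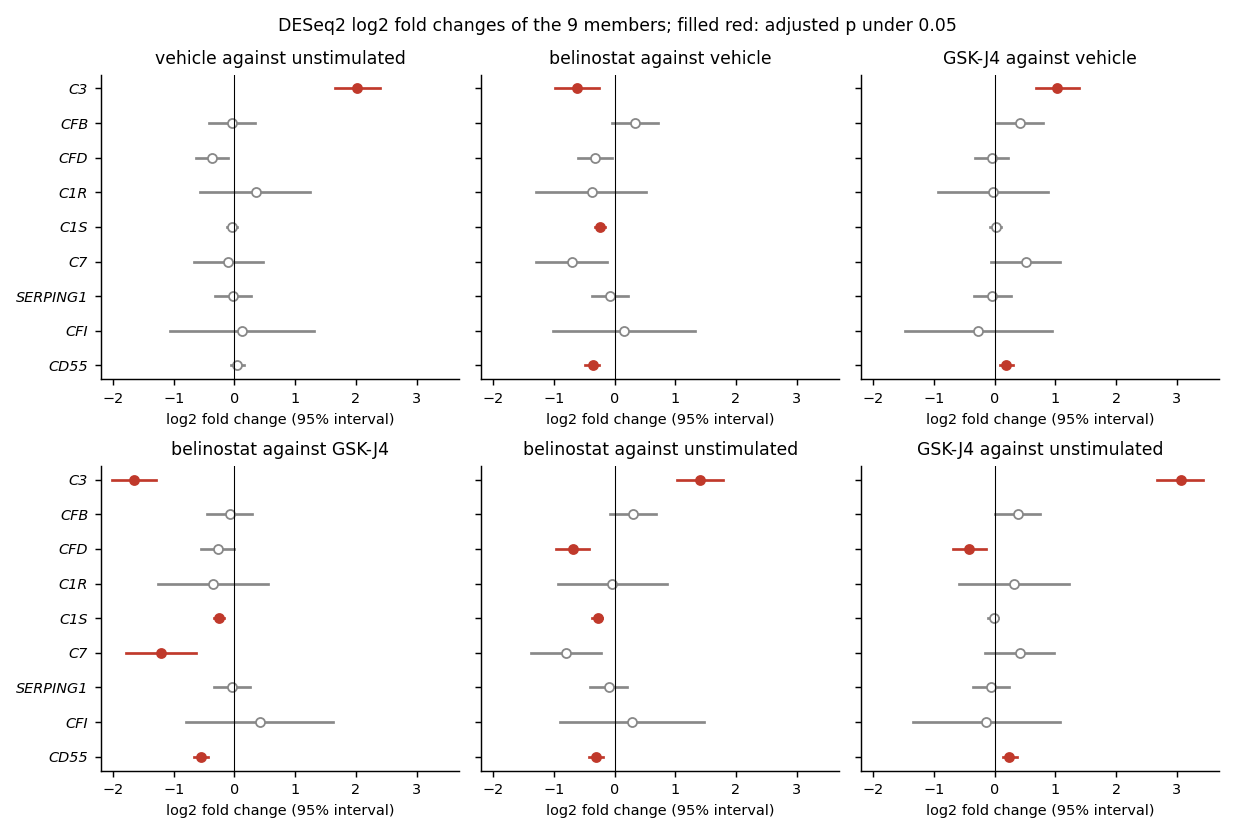
DESeq2 log2 fold changes (points, horizontal axes) with 95% intervals (lines) of the 9 members in the 6 comparisons, each named as first group against second, with filled red for an adjusted p under 0.05. C3 lies off 0 in every panel, from -1.65 to 3.06, the intervals of C1S and CD55 are the shortest of the 9, and those of CFI and C1R are the widest.

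The members spanned several orders of magnitude in level. Expressed as CPM per kb of annotated exon, the level of C1S was 387 ± 14.2 in unstimulated cells, 378 ± 18.5 in vehicle, 320 ± 12.6 under belinostat and 378 ± 11.8 under GSK-J4 (SD, n = 4), the highest of the 9 in each group. C1R followed at 24.3 to 31.7 on this scale as group means, and per kb it amounted to 7.6% ± 2.92 of C1S over the 16 libraries (SD), from 2.81% to 14.1%. SERPING1 (20.6 to 22.1) and CFD (15.2 to 24.5) came next, and the ranges of C1R, SERPING1 and CFD overlapped in every group, apart from CFD lying below C1R in vehicle and below SERPING1 in GSK-J4 cells. CD55 ranked 5, at 4.4 to 6.39. C3, at 0.535 in unstimulated cells, ranked 7 there behind CFB (0.892) and overtook it in the other groups, at 2.19 in vehicle, 1.42 under belinostat and 4.41 under GSK-J4. C7 ranked 8, at 0.296 to 0.671, and CFI ranked 9, at 0.0707 to 0.0965. With the longest coding transcript as the length, C1S remained first and CFI last, and SERPING1 moved above C1R in unstimulated and belinostat cells.

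**Figure D3:**
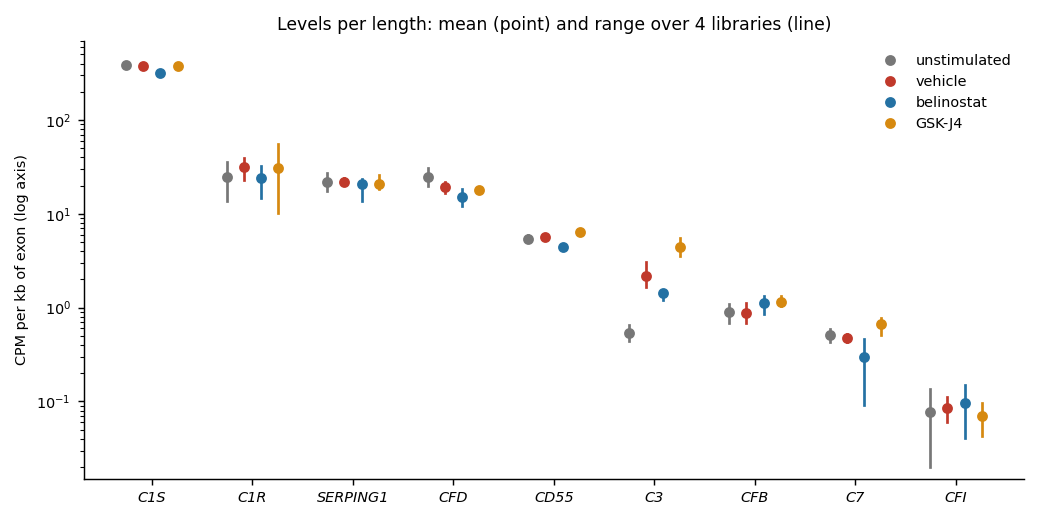
CPM per kb of annotated exon (vertical log axis) for the 9 members, with points for group means and lines from the lowest to the highest of 4 libraries. The line of CFI in unstimulated cells is cut at 0.02 because 1 library was at 0. C1S lies highest in each group, and C3 moves from 0.535 in unstimulated cells to 4.41 under GSK-J4.

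The remainder of the pathway was read from a list of 44 other complement genes, of which 16 averaged 10 or more normalized counts. MASP1, a lectin-pathway protease, held 14195 to 18516 normalized counts in a library. The membrane regulators CD46 and CD59 held 5274 to 6441 and 6003 to 7456. None of these 3 was called in any of the 6 comparisons. The chains of C1q, which bring C1r and C1s to their targets, were at 0 for C1QA, C1QB and C1QC. DESeq2 called 1 of 18 tested genes between vehicle and unstimulated cells (1.74% of all genes) and 3 of 16 between belinostat and vehicle (6.26%). It called 0 of 14 between GSK-J4 and vehicle (1.92%), where 3 had an unadjusted p under 0.05 and edgeR also called 0. COLEC10, which encodes a lectin that binds sugars, was the call after the cytokine pulses, with unstimulated libraries of 3360.3, 3002.2, 3176.3 and 3120.4 normalized counts and vehicle libraries of 3869.1, 3799.3, 4309.0 and 4198.2, a log2 fold change of 0.35 (SE 0.06, adjusted p 3.01e-06 by DESeq2). It was also called higher than in unstimulated cells under belinostat (0.39) and GSK-J4 (0.20). The call under GSK-J4 (adjusted p 0.0237 by DESeq2) was lost in 8 of 14 alternatives, among them edgeR (adjusted p 0.0668), library totals as size factors and 6 of the 8 fits without 1 library (unstimulated replicates 2 to 4 and GSK-J4 replicates 22 to 24), with log2 fold changes from 0.18 to 0.24 over the alternatives. The other COLEC10 calls against unstimulated cells held in all 14.

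Under belinostat, C2, C4B and C1RL were lower than in vehicle. C2, the protease that forms the classical C3 convertase with C4b and lies next to CFB, stood at 1056.5, 960.1, 829.0 and 957.1 normalized counts in vehicle and at 588.1, 764.4, 700.2 and 774.6 under belinostat (log2 -0.43, SE 0.09, adjusted p 0.000129 by DESeq2). C4B went from 2653 to 1756 (log2 -0.60, SE 0.15, adjusted p 0.00148 by DESeq2), and C1RL, a C1r-like protease, from 2396 to 2107 (log2 -0.19, SE 0.05, adjusted p 0.0144 by DESeq2). Libraries did not overlap for any of these, though belinostat replicate 17 was the lowest each time. Without it C2 (-0.35) and C4B (-0.49) were called, C1RL was not (-0.15, adjusted p 0.0605 by DESeq2), and VTN, which encodes vitronectin, was called higher (0.68), as it was without that library against GSK-J4 (0.48) and unstimulated cells (0.52). The C1RL call was also lost in edgeR (adjusted p 0.0532) and without vehicle replicate 13 or 16. C4B stood at 1917 in unstimulated cells. Vehicle minus unstimulated was 0.47 for C4B (SE 0.14, adjusted p 0.0657 by DESeq2), not called though the libraries did not overlap. Belinostat minus unstimulated was -0.13 (SE 0.15, adjusted p 0.695 by DESeq2). C4A and C4B are near-identical copies, so the reads between them may be divided wrongly, and C4A, with belinostat libraries from 694.1 to 1693.6, was not called. Between belinostat and GSK-J4 4 of 16 were called, beside 12.2% of all genes. These were C2 (-0.49) and C4B (-0.41), lower under belinostat, and COLEC10 (0.19) and C5 (0.42), higher. The C2 call held in all 14 alternatives. That of C4B (adjusted p 0.045 by DESeq2) was lost in 8, among them edgeR, library totals and without belinostat replicate 17 (-0.30), 18 or any 1 GSK-J4 replicate. C5 (adjusted p 0.0389 by DESeq2), whose libraries overlapped, lost its call in 9, among them edgeR, 2 surrogate variables and 7 of the 8 fits without 1 library, all but that without belinostat replicate 17. The COLEC10 call was lost without belinostat replicate 20 (0.13) or GSK-J4 replicate 21 (0.15). Against unstimulated cells 3 of 16 were called for belinostat (C2, C1RL and COLEC10), beside 10.3% of all genes. For GSK-J4 it was 1 of 21 (COLEC10), beside 5.55%.

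**Figure D4:**
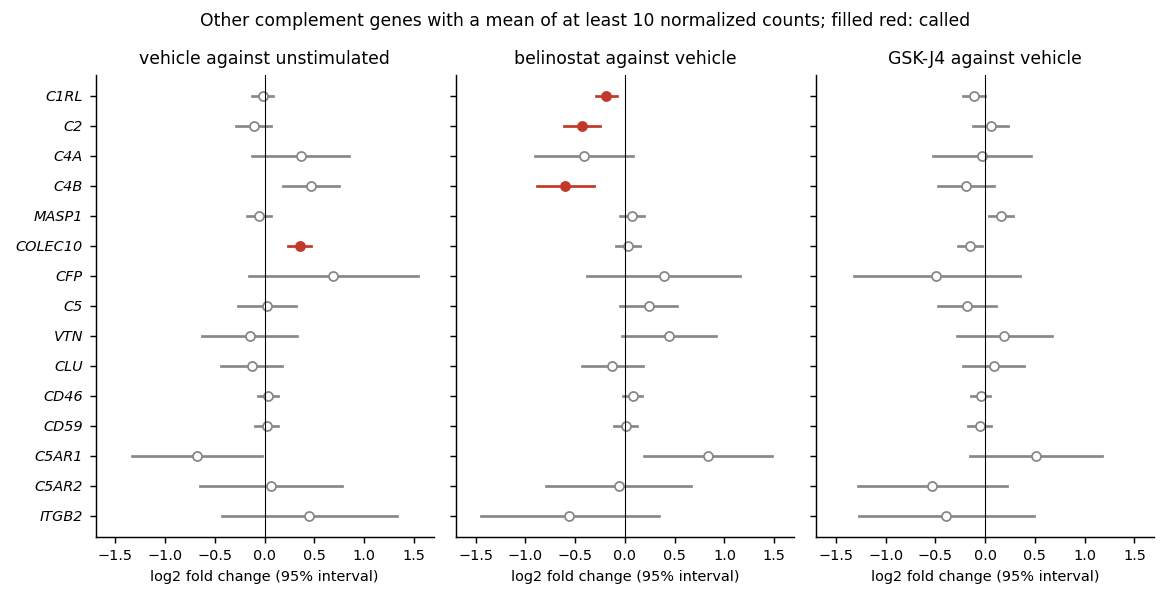
DESeq2 log2 fold changes (points) with 95% intervals (lines) of 15 other complement genes with a mean of at least 10 normalized counts, for 3 comparisons, with filled red for calls. COLEC10 is called after the pulses and C1RL, C2 and C4B under belinostat, and none of the 15 under GSK-J4.

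The genes nearest to the members in the genome were read in the same fit, to set the members beside their surroundings. By position, 12 protein-coding genes that are no members lay nearest on either side within 100 kb and had at least 10 normalized counts, and each was tested in all 6 comparisons. DESeq2 called 0 of the 12 between vehicle and unstimulated cells (3 at an unadjusted p under 0.05, 0 by edgeR), where 1.74% of all genes were called. It called 2 between belinostat and vehicle (6.26% of all genes) and 1 between GSK-J4 and vehicle (1.92%). It called 5 between belinostat and unstimulated cells (10.3%), 3 between belinostat and GSK-J4 (12.2%) and 1 between GSK-J4 and unstimulated cells (5.55%). GPR108, which overlaps the start of C3 on the same strand, differed by 0.16 for vehicle minus unstimulated (SE 0.06, adjusted p 0.166 by DESeq2), by 0.05 for belinostat minus vehicle and by 0.01 for GSK-J4 minus vehicle, where C3 differed by 2.02, -0.62 and 1.03. It was called for belinostat minus unstimulated (0.22), where C3 differed by 1.40, and lost that call in a fit of the compared groups only (adjusted p 0.0753 by DESeq2). The 2 calls under belinostat were C1RL and C2, which are complement genes themselves, and the call under GSK-J4 was MED16 (0.18, adjusted p 0.0396 by DESeq2), where CFD, which it overlaps, differed by -0.05. This MED16 call was lost in 11 of 14 alternatives, among them edgeR (adjusted p 0.0808) and the fits without any 1 of the 8 libraries compared. MED16 was lower under belinostat than in unstimulated cells (-0.21, adjusted p 0.0021 by DESeq2), where CFD was lower as well (-0.69), and lower than under GSK-J4 (-0.24, adjusted p 0.000314 by DESeq2), where CFD differed by -0.27 and was not called. Both of these MED16 calls held in all 14 alternatives. LPCAT3, an enzyme of phospholipid remodelling that overlaps C1S on the other strand, was not called between belinostat and vehicle (-0.14, adjusted p 0.136 by DESeq2) but was lower than in unstimulated cells under belinostat (-0.25) and GSK-J4 (-0.19), the second call being lost without GSK-J4 replicate 24 (-0.15). Without belinostat replicate 17, LPCAT3 was also called between belinostat and vehicle (-0.16). YPEL4, a neighbour of SERPING1, was higher under belinostat than under GSK-J4 (0.48, adjusted p 0.015 by DESeq2), a call lost without belinostat replicate 17 or GSK-J4 replicate 22 or 23. CD55 had no neighbour that met the rule.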

How the data were processed

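RNA-seq libraries of 16 cultures were made with the NEBNext Ultra II kit and sequenced on a NextSeq500. Per the submitters' processing notes, FastQC 0.11.9, MultiQC 1.14 and kallisto 0.48.0 were used, with hg38 named as build. The authors deposited estimated counts per gene symbol (kallisto), not scaled to depth, and the transcriptome release was not given. The columns of unstimulated libraries read "none" where titles give DMSO, and were matched by replicate number. Doses are those of the labels. In other places the study gives a lower IL-1B dose, and for another assay a lower GSK-J4 dose. For belinostat, a supplementary legend gives a higher dose for every assay without another stated dose, which may include these libraries. No column of per-sample values was unused (0).

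The estimated counts were rounded to whole numbers and tested with DESeq2 1.42.0 (R 4.3.3) in a single fit of 16 libraries on group, median-of-ratios size factors, two-sided Wald test, unshrunken log2 fold changes, with calls at an adjusted p (Benjamini-Hochberg, over all genes tested) below 0.05. Alternatives were edgeR 4.0.16 (quasi-likelihood), TMM or library totals as size factors, a filter of at least 10 counts in at least 4 libraries, only the groups compared, 2 surrogate variables (sva 3.50.0) and leaving out each library. Scripts were tested on simulated data. Gene positions are from GENCODE 44, and promoters from RefSeq. The text names every member, other complement genes with a mean of at least 10 normalized counts, with values for those called in any comparison, and the nearest neighbours by position. TGFB2 was named after its values were seen. A gene of the list of other complement genes is counted but not reported here by name. Members and lists were chosen with earlier results of these data known. No molecular identifiers were given, and limits on counts of 0 therefore cover counting error only.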

Additional observations from a re-analysis of the deposited data

Results flagged for a closer look

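Of the 36 combinations of member and group, 3 held a library far from its 3 companions, where chance gives about 1 in 20. C1S in belinostat replicate 17 stood at 43530 normalized counts, where the other belinostat libraries held 46992 to 47506. SERPING1 in the same library stood at 1734, where the others held 2813 to 2982. CD55 in unstimulated replicate 1 stood at 1090, where the other unstimulated libraries held 935.3 to 953.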

How the results depend on the processing

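No paired analysis was possible because the groups share no replicate numbers. Of 709 recomputed log2 fold changes over 51 results for members, 641 kept their direction and side of the threshold, 23 lost a call, 8 gained one and 37 changed sign. The changes of sign fell on differences that were not called. The cause was not tested for any change given here.

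Between GSK-J4 and vehicle the members called were 1 (C3) with library totals, with edgeR and without each single library in turn. Leaving out 1 library gave 1 to 2 members between vehicle and unstimulated cells. Over all alternatives the members called were 2 to 4 between belinostat and vehicle and 4 to 6 between belinostat and unstimulated cells. They were 2 to 3 between GSK-J4 and unstimulated cells and 4 throughout between belinostat and GSK-J4. For the other complement genes and the neighbours, smaller changes in these counts are not listed. The other complement genes called were 3 between vehicle and unstimulated cells, 6 between belinostat and vehicle and 3 between GSK-J4 and unstimulated cells with 2 surrogate variables, 2 between belinostat and GSK-J4 with edgeR, and 0 between GSK-J4 and unstimulated cells with library totals or edgeR. Leaving out 1 library gave 1 to 2 of them between vehicle and unstimulated cells, 0 to 1 between GSK-J4 and vehicle, 1 to 4 between belinostat and GSK-J4 and 0 to 1 between GSK-J4 and unstimulated cells. Genomic neighbours called were 1 between belinostat and vehicle with edgeR, 0 between GSK-J4 and vehicle with library totals, edgeR or 2 surrogate variables, and 2 with the filter on low counts and 3 with 2 surrogate variables between GSK-J4 and unstimulated cells. Without 1 library they were 0 to 1 between vehicle and unstimulated cells, 1 to 3 between belinostat and vehicle, 0 between GSK-J4 and vehicle throughout and 1 to 2 between GSK-J4 and unstimulated cells.

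Changes of sign outside the single-library fits were CFI between vehicle and unstimulated cells (-0.020) and C1R between GSK-J4 and vehicle (0.045), both with 2 surrogate variables, and C1S between GSK-J4 and vehicle (-0.00014) with library totals. Leaving out 1 library moved log2 fold changes across 0 as follows. For vehicle minus unstimulated, CFB ran from -0.18 to 0.070, CFI from -0.28 to 0.52 and SERPING1 from -0.12 to 0.081. For belinostat minus vehicle, SERPING1 ran from -0.15 to 0.073. For GSK-J4 minus vehicle, C1R ran from -0.49 to 0.26, C1S from -0.0062 to 0.042, CFD from -0.12 to 0.0058 and SERPING1 from -0.16 to 0.015. For belinostat minus GSK-J4, C1R ran from -0.65 to 0.11, CFB from -0.18 to 0.034 and SERPING1 from -0.11 to 0.11. For belinostat minus unstimulated, C1R ran from -0.24 to 0.19 and SERPING1 from -0.20 to 0.049. For GSK-J4 minus unstimulated, C1R ran from -0.15 to 0.61, C1S from -0.046 to 0.0028, CFI from -0.54 to 0.26 and SERPING1 from -0.19 to 0.041. Depth limits CFI, which held 0 to 14.0 normalized counts.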
